A study of Arabidopsis thaliana with 8 samples.

Results

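The 10 genes described here are class III peroxidases of the Arabidopsis root, namely PRX1 (AT1G05240), PRX2 (AT1G05250), PRX33 (AT3G49110), PRX34 (AT3G49120), PRX35 (AT3G49960), PRX44 (AT4G26010), PRX53 (AT5G06720), PRX57 (AT5G17820), PRX71 (AT5G64120) and PRX73 (AT5G67400). They are 10 of the 73 genes of the class III family and 10 of the 23632 genes in the normalized table. They were picked by name with their normalized values at both temperatures in view, because members were seen to move in either direction. Their differences between the temperatures are therefore given as a description, without a test, and the tests concern the other 63 family genes and the lists of associated genes. The libraries were made from the last 1 mm of roots of Col-0, the standard wild-type accession of Arabidopsis thaliana. Seedlings grew on agar plates at 22 °C until 5 days old. Control plates then stayed at 22 °C for 48 h, and high temperature plates spent the same 48 h at 30 °C. There were 4 libraries per temperature, with no transgene or mutation in either group. The methods of the study describe each replicate as a pool of 50 seedlings from 5 plates.

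Class III peroxidases are secreted haem enzymes of plants. They use hydrogen peroxide to couple phenolic compounds such as lignin precursors and tyrosines of extensins, which stiffens the cell wall, and they can also produce reactive oxygen species that loosen it. Hydrogen peroxide in the wall derives largely from superoxide made by NADPH oxidases. In roots, members of the family are known for work in root hair growth, in the elongation zone and in lignified walls of the endodermis and xylem. Of the genes described here, PRX1, PRX44 and PRX73 act in root hair growth, PRX35 is annotated as enriched in root hair cells, and PRX57 belongs to the peroxidases under the control of the root repressor UPB1. PRX33 and PRX34 promote cell elongation and produce hydrogen peroxide in defence, PRX2 and PRX71 are cell-wall-bound enzymes linked to lignification, and PRX53 responds to wounding.

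The sequences of these genes set how well their reads can be told apart. On the TAIR10.1 build, PRX1 lies at chr1:1520278-1523023 on the plus strand and PRX2 at chr1:1525601-1527360 on the minus strand, 2577 bases from each other. Their coding sequences of 978 bases are identical. All 1096 windows of 100 bases within single exons of PRX2 occur elsewhere in the genome, and so do 55.0% of those of PRX1. The values of this pair are uncertain for that reason. The first 120 bases of the coding sequence are shown to make the point, and the same letters begin PRX2.

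PRX1 and PRX2: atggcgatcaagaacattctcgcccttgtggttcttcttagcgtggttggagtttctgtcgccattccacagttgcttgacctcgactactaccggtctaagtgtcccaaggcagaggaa

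PRX33, at chr3:18200587-18203265, and PRX34, at chr3:18207651-18210333, follow each other on the plus strand with 4385 bases between them. Their coding sequences are 90.4% identical and share an unbroken run of 111 bases, yet only 1.0% and 1.1% of their 100-base exon windows occur elsewhere in the genome. Most reads of that length can thus be placed in a single gene of the pair. The most alike 120 bases of the pair, from base 319 of the PRX33 and base 316 of the PRX34 coding sequence, differ at 1 base, in capitals.

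PRX33: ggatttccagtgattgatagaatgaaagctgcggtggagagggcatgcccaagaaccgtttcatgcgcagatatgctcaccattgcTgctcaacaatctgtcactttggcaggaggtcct
PRX34: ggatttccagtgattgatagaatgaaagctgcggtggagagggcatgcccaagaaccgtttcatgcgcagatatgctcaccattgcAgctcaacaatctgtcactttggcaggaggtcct

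PRX35, at chr3:18524084-18525792 on the minus strand, and PRX73, at chr5:26894778-26896488 on the plus strand, are the next closest pair, with 78.6% identical coding bases. No 100-base exon window of either gene recurs in the genome, and the same held for PRX44, PRX53, PRX57 and PRX71. The most alike stretch of 120 bases, from base 158 to base 277 of both coding sequences, already differs at 16 bases, in capitals.

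PRX35: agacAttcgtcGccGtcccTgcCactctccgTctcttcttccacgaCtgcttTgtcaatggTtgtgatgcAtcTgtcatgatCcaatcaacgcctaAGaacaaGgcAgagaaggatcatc
PRX73: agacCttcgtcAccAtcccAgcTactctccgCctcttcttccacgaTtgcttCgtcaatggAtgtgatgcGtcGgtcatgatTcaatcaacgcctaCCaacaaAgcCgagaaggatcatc

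The windows upstream of the genes were less alike than the coding sequences. The 250 bases upstream of the annotated start were 48.2% identical in PRX33 and PRX34 and 46.4% in PRX35 and PRX73, where the 45 pairs among the 10 genes ranged from 39.4% to 51.6% with a median of 45.9%. These windows are shown for the 4 genes because each pair holds a gene that was at 0 in a whole group. They lie at chr3:18200337-18200586 for PRX33, chr3:18207401-18207650 for PRX34, chr3:18525793-18526042 for PRX35 and chr5:26894528-26894777 for PRX73, each given 5′ to 3′ on the strand of its gene.

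PRX33: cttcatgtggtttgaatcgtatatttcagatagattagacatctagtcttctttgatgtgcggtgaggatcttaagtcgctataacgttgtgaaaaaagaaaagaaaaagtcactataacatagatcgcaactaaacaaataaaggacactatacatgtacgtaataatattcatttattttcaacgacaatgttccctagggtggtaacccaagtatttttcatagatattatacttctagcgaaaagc
PRX34: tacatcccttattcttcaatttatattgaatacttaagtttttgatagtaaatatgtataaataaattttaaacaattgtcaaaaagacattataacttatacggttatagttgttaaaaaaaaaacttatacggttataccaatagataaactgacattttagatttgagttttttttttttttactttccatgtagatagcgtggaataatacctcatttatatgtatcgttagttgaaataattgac
PRX35: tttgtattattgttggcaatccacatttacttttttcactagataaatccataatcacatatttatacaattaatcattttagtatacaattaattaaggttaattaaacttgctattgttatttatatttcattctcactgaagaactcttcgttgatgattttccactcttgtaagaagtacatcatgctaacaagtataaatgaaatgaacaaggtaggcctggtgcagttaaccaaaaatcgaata
PRX73: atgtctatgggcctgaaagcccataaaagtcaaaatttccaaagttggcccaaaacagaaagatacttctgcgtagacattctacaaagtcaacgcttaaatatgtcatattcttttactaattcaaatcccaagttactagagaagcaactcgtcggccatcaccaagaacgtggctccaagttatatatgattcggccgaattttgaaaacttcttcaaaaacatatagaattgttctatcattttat

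Both strands of these windows were searched for the root hair element RHE, the heat shock element pair GAANNTTC and the G-box CACGTG. No window of the 10 genes held any of them, which is why no letter is in capitals. Of the 250-base windows of 27443 protein-coding genes, 0.754% held RHE, 9.55% held GAANNTTC and 6.49% held CACGTG. A search of this width says only that these letters are absent from it.

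The 8 libraries held between 38216649 and 41833843 reads in genes, and every deposited value was a whole number of reads times a factor of its library. A normalized value of about 1 therefore stands for 1 read. Levels are given as normalized values for a gene across libraries and as FPKM, which divides by gene length, between genes, and a value after ± is the SD over 4 libraries unless it is marked SE. A tested gene (mean normalized value of at least 1) was called at an adjusted p under 0.05 by limma with Benjamini-Hochberg adjustment over all 21739 tested genes if its log2 fold change was also 0.58 or more in size. By this rule 20.0% of the tested genes were higher at high temperature and 17.5% were lower. When all libraries were scaled to 1 common total instead, the median over all genes moved from 0.01 to 0.21 (log2) and 69.7% of the calls were higher, against 53.4% before.

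Of the 10 genes, 8 were tested. PRX34, PRX33 and PRX53 were called higher and PRX35, PRX57 and PRX73 were called lower, whereas PRX1 and PRX44 were not called. PRX2 and PRX71 had too few reads. Since the choice of genes used this contrast, these counts of 3 and 3 beside the 20.0% and 17.5% of all genes are no result about the set. In 2 genes every high temperature library was above every control library, and in 3 genes every one was below, against 32.8% and 32.7% of all tested genes.

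**Figure D1:**
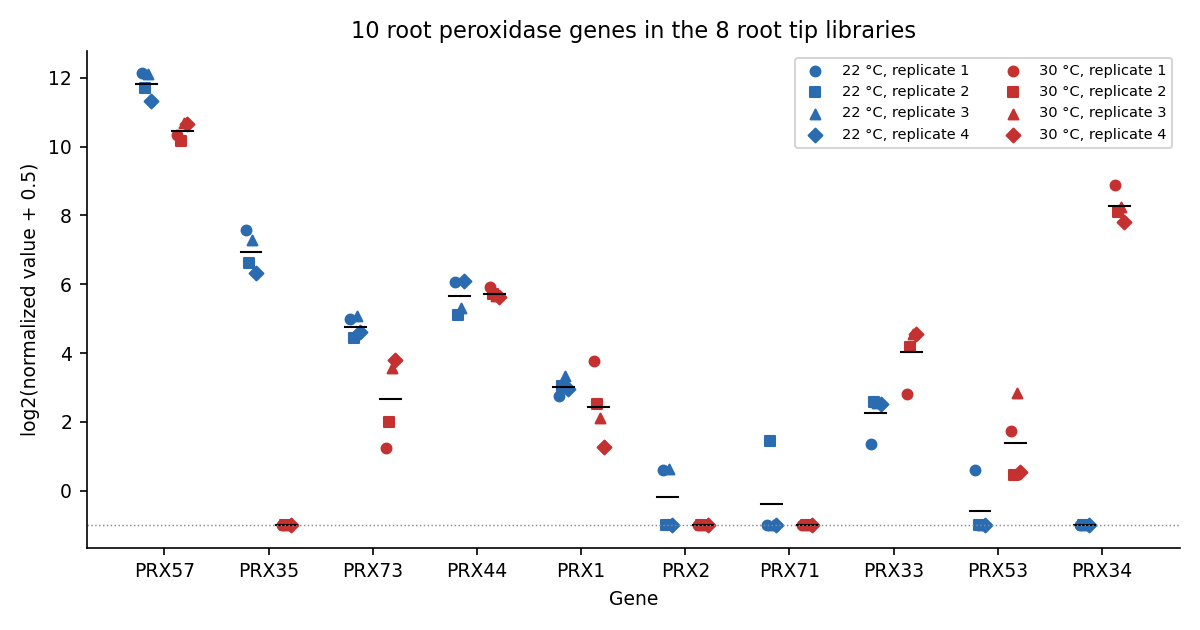
Normalized values of the 10 peroxidase genes on a log2 scale (value + 0.5), with 1 point per library (22 °C in blue, 30 °C in red, shape by replicate number) and a line at the mean of the log2 values. Points on the dotted line are values of 0: all 4 control libraries for PRX34 and all 4 high temperature libraries for PRX35.

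PRX57 was the most abundant of the 10 genes at both temperatures. Its normalized values were 4477, 3306, 4420 and 2565 in the control and 1297, 1154, 1655 and 1602 at high temperature. The groups did not overlap, with control replicate 4 the lowest of its group and still above all high temperature libraries. The mean was 2.59-fold lower at high temperature, a log2 fold change of -1.35 ± 0.15 (SE, n = 4 per group). In FPKM, PRX57 went from 65.6 ± 16.4 to 25.4 ± 4.28 (SD over 4 libraries).

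PRX35 was present in every control library, at 191.2, 97.3, 154.5 and 79.6, and was 0 in every high temperature library. Control replicates 1 and 3 were the high ones and replicate 4 was the lowest. Over the groups this amounted to 494 reads against none, which is at least 187-fold lower when 3 reads over the high temperature group are taken as the floor. Of the 23632 genes in the table, 10 were at 0 in all high temperature libraries while averaging 50 or more in the control, and PRX35 was the fifth of them by its control mean.

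PRX73, its closest relative, also fell but kept reads. Its values were 31.0, 21.0, 33.0 and 24.1 in the control and 1.88, 3.51, 11.4 and 13.6 at high temperature. The groups did not overlap, although high temperature replicates 3 and 4 stood several times above replicates 1 and 2. The log2 fold change was -2.11 ± 0.51 (SE, n = 4 per group), with a 95% interval from -3.20 to -1.02.

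PRX34 showed the opposite pattern to PRX35. It was 0 in all 4 control libraries and reached 473.8, 276.3, 305.9 and 223.6 at high temperature, with replicate 1 the highest. With 1372 reads against none it was at least 402-fold higher with 3 reads over the control group as the floor. Over the whole data set 9 genes were at 0 in every control library and averaged 50 or more at high temperature, and PRX34 had the highest mean of the 9. The next gene on the same strand, AT3G49130, starts 119 bases beyond the end of PRX34. It was also 0 in every control library and had 3.75, 0.877, 0.953 and 1.94 at high temperature, far below PRX34.

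PRX33, the tandem copy of PRX34, was present at both temperatures at low values. The control libraries had 2.07, 5.53, 5.33 and 5.23 and the high temperature libraries 6.57, 17.5, 22.9 and 23.2. The groups were separated, but by a small gap, between control replicate 2 and high temperature replicate 1. The log2 fold change was 1.77 ± 0.48 (SE, n = 4 per group), on 17 control reads and 75 from the heated roots. In FPKM, PRX34 at high temperature (5.32 ± 1.80) was well above PRX33 (0.284 ± 0.126), whereas in the control PRX33 (0.0735 ± 0.0267) was the only one of the pair with reads.

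The other genes known from root hair growth did not separate the temperatures. PRX44 had 66.2, 34.3, 39.4 and 68.0 in the control and 60.0, 51.8, 49.6 and 49.4 at high temperature, all within the control range. Its log2 fold change was 0.08, with a 95% interval from -0.44 to 0.59. PRX44 overlaps AT4G26020 on the opposite strand over 1304 bases, and whether the counting used the strand is not stated in the sources at hand. AT4G26020 went from 33.6 ± 12.1 to 51.1 ± 5.51 (SD over 4 libraries), values of the same size as those of PRX44, and whether reads passed between the genes was not tested.

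PRX1 had 6.20, 7.74, 9.59 and 7.33 in the control and 13.1, 5.26, 3.81 and 1.94 at high temperature. The high temperature libraries spread over a wider range than the control libraries and enclosed them on both sides. The log2 fold change was -0.60 with a 95% interval from -1.72 to 0.52, which leaves a decrease or a moderate increase possible. PRX2, identical to it in the coding sequence, had 1 read in control replicates 1 and 3 and none elsewhere.

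PRX53 and PRX71 were close to the limit of detection in these root tips. PRX53 had 1 read in control replicate 1, none in the other control libraries and 2.81, 0.877, 6.67 and 0.968 at high temperature. This was 1 read against 12 with overlapping groups, and the call was lost in 11 of 19 alternatives, among them those without control replicate 2, 3 or 4 or without high temperature replicate 1 or 3. PRX71 had 2 reads in control replicate 2 and none in any other library. A difference between the temperatures in PRX71 was not detectable at this depth. None could be read for PRX2 either, since all 1096 of its 100-base exon windows occur elsewhere in the genome.

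**Figure D2:**
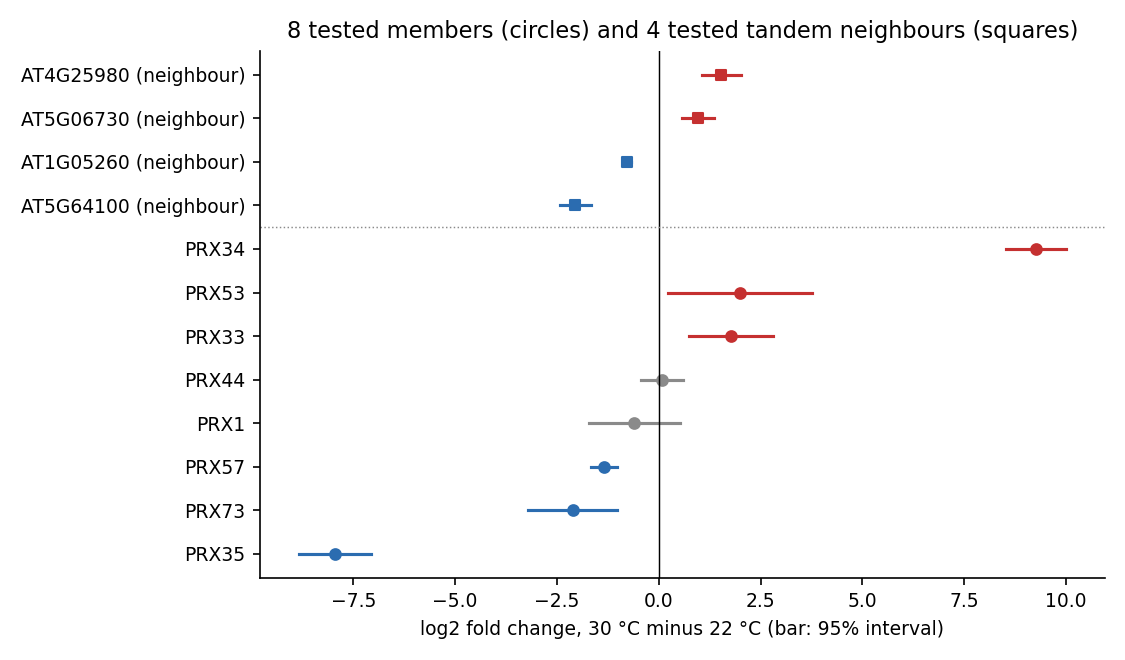
Log2 fold change (30 °C minus 22 °C) with its 95% interval for the 8 tested members (circles) and 4 family genes next to a member (squares), red for genes called higher, blue for lower and grey for not called. PRX34 and PRX35 lie farthest out, but each has a group with no read, so that their fitted values depend on the pseudocount of 0.5, whereas the intervals of PRX1 and PRX44 span 0.

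By FPKM, the order in the control was PRX57, PRX35, PRX44 and PRX73, followed by PRX1, PRX33, PRX71, PRX2 and PRX53 below 0.1 FPKM and PRX34 at 0. PRX57 and PRX35 were each separate from the next gene, but the ranges of PRX44 and PRX73 overlapped, and from PRX1 downwards each gene with reads overlapped the next. PRX1 was nevertheless above PRX71 and PRX53 in every control library. It was also above PRX2, but reads from their identical coding sequence cannot be told apart, so the order of this pair is uncertain. At high temperature the order was PRX57, PRX34, PRX44, PRX33, PRX73, PRX1 and PRX53, with PRX2, PRX35 and PRX71 at 0. Each of the first 3 was separate from the next, and PRX33, PRX73, PRX1 and PRX53 overlapped from neighbour to neighbour. The second rank thus passed from PRX35, at 2.36 ± 0.93 FPKM, to PRX34, at 5.32 ± 1.80 FPKM (SD over 4 libraries).

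Summed over the 10 genes, FPKM was 69.5 ± 17.4 at 22 °C and 32.0 ± 4.12 at 30 °C (SD over 4 libraries). PRX57 made up 94.4% of the sum in the control and 79.0% at high temperature. Without it, the sum of the other 9 genes went the other way, from 3.87 ± 1.07 to 6.68 ± 1.74, and control replicate 1, at 5.21, was then above high temperature replicate 4, at 5.16. The 10 genes held 3.24% of the summed FPKM of the family in the control and 2.38% at high temperature, with overlapping groups.

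The other 63 family genes carried most of the peroxidase transcript. Their summed FPKM was 2061 ± 106 at 22 °C and 1314 ± 50.6 at 30 °C (SD over 4 libraries). The libraries did not overlap, with 1931 the lowest in the control and 1379 the highest at high temperature. The log2 ratio was -0.65 (exact two-sided permutation test, p = 0.029, the smallest that 4 against 4 libraries allow). With the FPKM of each library rescaled to the same sum it was -0.41, with the same p. The 63 genes are the family without the members that were picked by their values. The family list and this test were also chosen with earlier results of these data known. The p is therefore not that of an independent test.

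**Figure D3:**
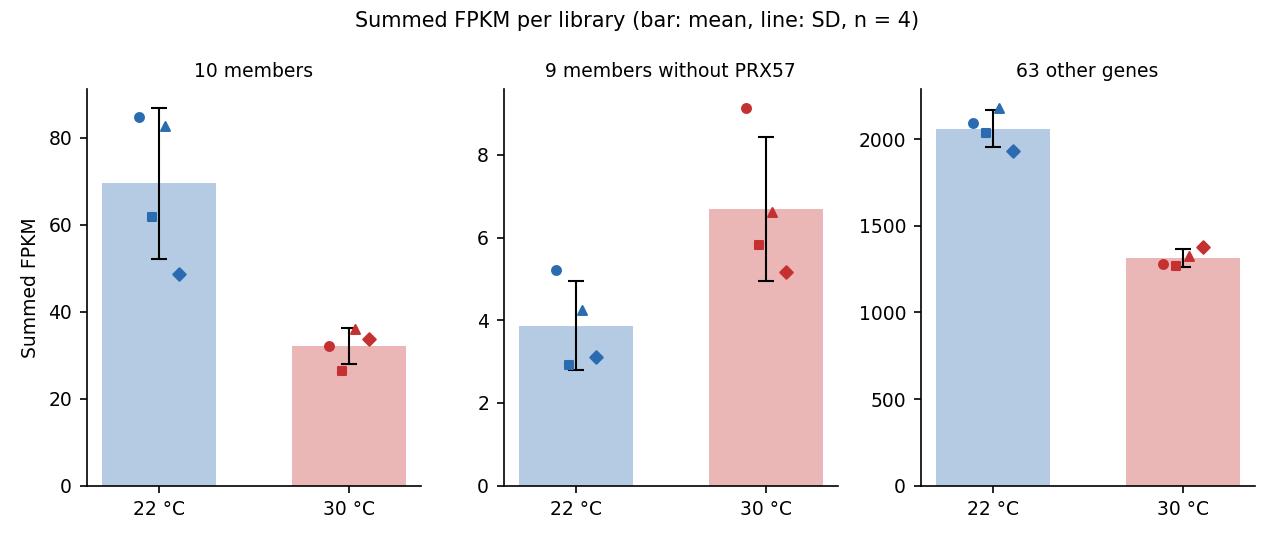
Summed FPKM per library for the 10 genes, for the 9 without PRX57 and for the other 63 class III peroxidases, each with its own axis from 0 (bars are means, lines are SD, n = 4, points are libraries). The sums of the 10 and of the 63 genes were lower in every 30 °C library than in any 22 °C library, whereas the 9 genes without PRX57 had the higher mean at 30 °C, with overlap.

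Of these 63 genes, 43 were tested, 8 were called higher (18.6%, near the 20.0% of all genes) and 16 lower (37.2%, beside 17.5% of all genes), and 19 were not called. The median log2 fold change was -0.40, beside 0.01 over all genes tested. Among the rest, 5 had too few reads and 15 were only in the FPKM table, where 13 were listed at 0 in every library. The 2 genes nearest in sequence to PRX44 and PRX57, AT1G34510 (70.0% of coding bases) and AT3G03670 (59.1%), were among those listed at 0.

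The largest increase among the 43 was that of AT4G33420. It had 2.09 in control replicate 4 and 0 in the other control libraries, and 152, 92.1, 160 and 113 at high temperature (adjusted p = 4.6e-09, limma). With 552 reads in the heated roots against 2 in the control, it was the other family gene nearest to PRX34 in fold change. AT4G36430 rose from 2.89 ± 3.07 to 37.0 ± 38.6 (adjusted p = 0.0034, limma), with overlapping groups and high temperature replicate 3 at 89.6. PER9 (AT1G44970) rose 4.68-fold, from 19.4 ± 3.06 to 90.6 ± 29.2, without overlap (adjusted p = 1.8e-06, limma).

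PRX72 (AT5G66390), an enzyme of lignin formation, was called higher at 21.7, 3.32, 14.9 and 8.37 in the control and 46.9, 25.4, 155 and 9.68 at high temperature (adjusted p = 0.025, limma). The groups overlapped, and replicate 3 stood out. Its call was lost without any one of control replicate 2 (adjusted p = 0.094), control replicate 4 (0.054), high temperature replicate 1 (0.052) or high temperature replicate 3 (0.11), all by limma. PER64 (AT5G42180), the peroxidase of the Casparian strip, had 56.2 in the same replicate 3 and between 0 and 8.44 in the other high temperature libraries, and was not called (adjusted p = 0.17, limma). Without high temperature replicate 4 it passed (adjusted p = 0.014, limma).

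Library 3 of the high temperature group was also the highest in the endodermis and Casparian strip list. The summed normalized value of its 8 genes was 819.5 there and from 482 to 573 in the other high temperature libraries, beside 464 to 629 in the control, and CASP1 reached 94.3 against 0.877 to 7.51. Of the 8 markers 1, the regulator MYB36, was called higher and none lower, beside 20.0% and 17.5% of all genes. No marker was at 0 in a whole group. Of the 10 genes, PRX53 (6.67) and PRX57 (1655, beside 1602 in replicate 4) also had their highest value of the group in that library, and the others did not. The part of differentiated cells in the values of PRX72 and PER64 was not tested.

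Among the decreases, PER7 (AT1G30870) came nearest to the loss of PRX35. It had 197, 135, 84.2 and 119 in the control and 0, 0, 3.81 and 0 at high temperature, a 141-fold lower mean (adjusted p = 4.1e-08, limma). PER18 (AT2G24800) fell 61.0-fold, from 271 ± 8.89 to 4.44 ± 2.62 (adjusted p = 2.5e-10, limma). AT4G33870 fell 9.16-fold and AT4G37530 fell 4.56-fold (adjusted p = 1.6e-05 and 3.5e-07, limma). RHS18 (AT5G22410), a root hair gene, had 14 reads in the control libraries and none at high temperature, at least 5.32-fold lower by the same floor (adjusted p = 0.0028, limma).

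Among the genes named for known roles, the more abundant ones moved less in ratio but more in level than the decreases just given. RCI3 (AT1G05260), a cold-inducible peroxidase, fell 1.71-fold from 13544 ± 946 to 7908 ± 476 normalized units (adjusted p = 1.6e-09, limma), and its log2 fold change dropped below the threshold under 2 other scalings (-0.57 and -0.47). AT4G16270 fell 2.43-fold (adjusted p = 3.5e-09, limma). AT4G11290, at a log2 fold change of -0.22, stayed below the fold threshold (adjusted p = 0.0024, limma). AT5G39580, the closest relative of PRX71 with 75.5% of coding bases identical, had 5 and 8 reads in the 2 groups and was not called (adjusted p = 0.59, limma).

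**Figure D4:**
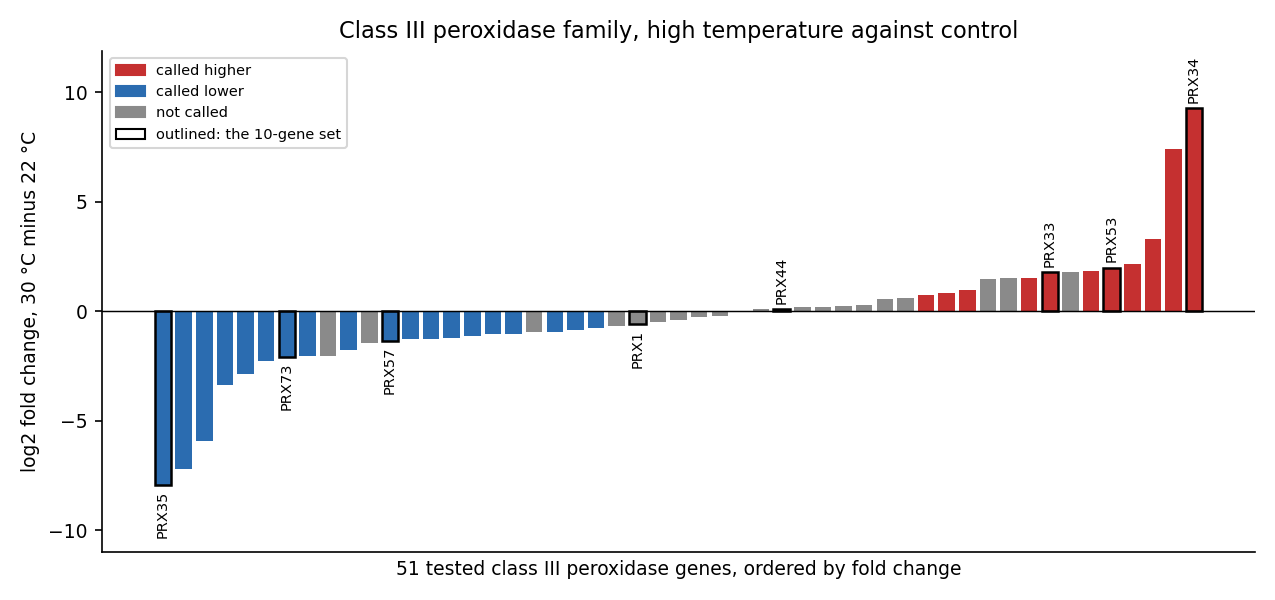
Log2 fold changes (30 °C minus 22 °C) of the 51 tested class III peroxidases in order of size, red for called higher, blue for called lower and grey for not called, with the tested genes of the set outlined and named. PRX34 and PRX35 are at the ends of the family, and of the 43 other genes 8 were called higher and 16 lower.

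Several members have a family gene beside them on the chromosome, and the values of both are given without a test of their difference. RCI3 lies 2406 bases from PRX2 and 6743 bases from PRX1, and fell by 0.78 on the log2 scale, a value inside the interval of PRX1. AT4G25980, 8906 bases from PRX44, rose from 28.6 ± 4.76 to 84.5 ± 18.4 without overlap (log2 fold change 1.54, adjusted p = 1.4e-05, limma), and the log2 fold change of PRX44 was 0.08. AT5G06730, 919 bases from PRX53 and 80.8% identical to it in the coding sequence, rose 1.94-fold, from 56.1 ± 12.0 to 109 ± 9.79 (adjusted p = 0.00021, limma), and was far more abundant than PRX53. AT5G64100, 7009 bases from PRX71, fell 3.95-fold, from 1409 ± 115 to 357 ± 138 (adjusted p = 4.4e-08, limma). AT5G64110 lies between these last 2 genes and was listed at 0 in all libraries of the FPKM table.

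The wall and oxygen pathways around these enzymes were read from the lists of their partners. Root hair cell markers were lower in 12 of 17 tested genes and higher in none, beside 17.5% and 20.0% of all genes. Their median log2 fold change was -1.98, beside 0.01 over all genes. The study had already reported RHD6, RSL4 and RSL2 as lower in these RNA-seq data. It then followed EXPA7 and COBL9, also lower, by quantitative PCR. The list was thus not independent of these data, and its counts are a description. COBL9, needed for hair tip growth, had 938, 645, 720 and 395 in the control and 0, 0, 17.2 and 10.7 at high temperature (adjusted p = 1.4e-06, limma). The hair expansin EXPA7 had 76.4 ± 26.1 in the control and reads at high temperature in replicate 3 alone, at 10.5 (adjusted p = 6.6e-06, limma). PRP3, a proline-rich wall protein of hairs, fell 28.6-fold (adjusted p = 7.7e-06, limma). Of the 18 listed markers 6 were at 0 throughout the heated roots, but these had few reads in the control as well. Over the control group MRH6 had 47 reads, RSL2 30, EXPA18 27, PRP1 22, XTH14 22 and XTH26 3. The summed value of the 18 markers went from 6498 to 8180 in the control to 4246 to 4522 at high temperature.

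PRX35 and PRX73 were thus lower beside root hair cell markers, whereas PRX1 and PRX44 were not called. Of the 17 tested markers 5 were not called either, namely RHD2, RHS10, RHS12, RHS13 and IRE. Fewer cells of a type and less RNA per cell cannot be told apart in these bulk samples. The non-hair markers were uncalled, with GL2 at a log2 fold change of 0.01 (adjusted p = 0.87, limma) and WER at -0.56 (adjusted p = 1.2e-07, limma, under the fold threshold). The part of cell composition in the values of PRX35 and PRX73 was not tested.

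Extensins, the wall glycoproteins that peroxidases cross-link, were lower in 9 of 12 tested genes and higher in none, beside 17.5% lower and 20.0% higher of all genes. Their median log2 fold change was -2.76, beside 0.01 over all genes. The summed normalized value of the list nevertheless overlapped, at 41861 to 54211 in the control and 41926 to 46469 at high temperature. The lower calls of AT5G06630, AT2G24980 and AT5G06640 rest on 10, 20 and 21 control reads. AT3G54580 had 1831, 1499, 1644 and 1005 in the control and 0, 3.51, 32.4 and 8.71 at high temperature (adjusted p = 2.8e-07, limma). AT3G54590 fell 176-fold (adjusted p = 3.8e-08, limma). AT5G35190 had 133 reads in the control and none at high temperature, at least 50.7-fold lower (adjusted p = 2.4e-08, limma). The fold threshold was kept in a further count. No tested root hair marker, extensin or NADPH oxidase was higher at an unadjusted p under 0.05 in limma (0 in each list). Nor was any by edgeR (0) or DESeq2 (0). Without the fold threshold 2 extensins passed as higher, AT1G23720 and AT2G43150, at log2 fold changes of 0.51 and 0.48.

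The NADPH oxidases and the regulators bear on the supply of peroxide and the control of the genes. RBOHD, of stress signalling, fell from 261 ± 43.9 to 93.1 ± 26.5 (adjusted p = 1.5e-06, limma). RBOHB fell from 65.1 ± 28.2 to 22.5 ± 4.41 (adjusted p = 0.00061, limma). RBOHC, the oxidase of root hairs, was at -0.30 on the log2 scale (adjusted p = 0.0016, limma), below the fold threshold. RBOHF was at -0.05 (adjusted p = 0.46, limma) and RBOHA at 0.42 (adjusted p = 0.55, limma). RBOHE, RBOHG and RBOHI failed a check of names against the reference annotation and were left out, although they have normalized values. Of the 5 tested oxidases 2 were called lower and none higher, beside 17.5% and 20.0% of all genes. With so few genes these counts are no result about the list.

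UPB1 (AT2G47270), a basic helix-loop-helix repressor of peroxidase genes in the root, had 419, 448, 410 and 367 in the control and 116, 92.1, 207 and 118 at high temperature. It fell 3.08-fold without overlap (adjusted p = 6.2e-07, limma), in the same direction as PRX57. The regulator MYB30 was at a log2 fold change of -0.05 (adjusted p = 0.43, limma).

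Laccases, which also polymerise lignin precursors, were higher in 3 and lower in 1 of 15 tested genes, no larger a share than the 20.0% and 17.5% of all genes. LAC15 rose 7.18-fold and LAC17 rose 4.83-fold, both without overlap (adjusted p = 2.7e-09 and 6.7e-08, limma). LAC2 rose from 2.09 ± 1.90 to 5.90 ± 2.68 with overlap (adjusted p = 0.048, limma), and LAC1 fell 3.58-fold (adjusted p = 0.00035, limma). Without control replicate 1 the count of higher laccases was 5, and without high temperature replicate 3 the count of lower ones was 3.

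Of 6 tested xylem markers, CESA7 rose 1.62-fold (adjusted p = 9.2e-05, limma), and VND7 and XCP2 fell 2.42-fold and 2.14-fold (adjusted p = 0.0078 and 1.7e-05, limma). Of 4 meristem markers, WOX5 rose 5.13-fold and PLT1 rose 1.87-fold, and CYCB1;1 fell 2.30-fold (adjusted p = 9.6e-05, 1.6e-09 and 5.6e-10, limma). None of 4 root cap markers reached the fold threshold in limma, in either direction, and 0 were called by edgeR or DESeq2. With the fold threshold kept, the count at an unadjusted p under 0.05 was also 0. SMB, BRN1 and BRN2 were slightly higher, at log2 fold changes of 0.34, 0.36 and 0.32 (adjusted p = 4.7e-05, 4.4e-05 and 0.0014, limma). In lists this short, such counts beside the 20.0% higher and 17.5% lower of all genes are no result about the lists.

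**Figure D5:**
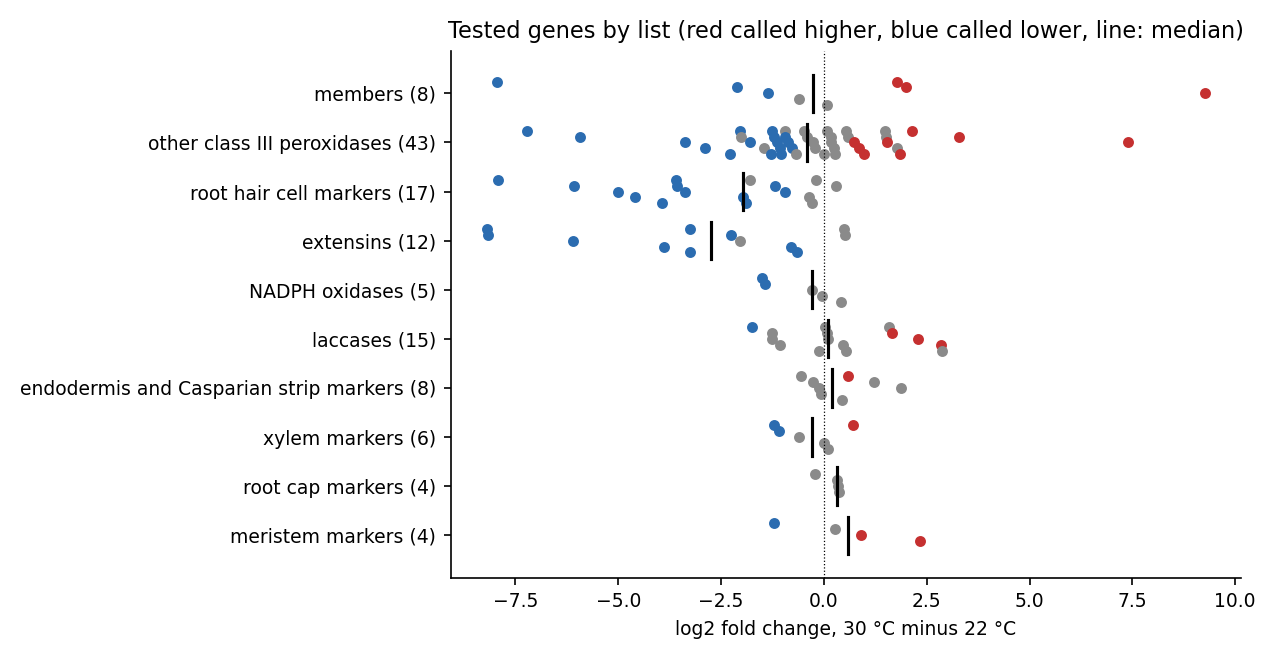
Log2 fold changes (30 °C minus 22 °C) of the tested genes of each list, 1 point per gene with the number tested in brackets, red for called higher, blue for called lower, grey for not called and a line at the median. The 10-gene set was chosen with this contrast in view, so its spread to both sides is no result. The called root hair markers and extensins all lie below 0. The marker RHS10 and the extensins AT1G23720 and AT2G43150 lie above 0 but were not called.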

How the data were processed

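Poly(A) RNA from pooled root tips was sequenced as directional libraries, 4 per temperature. HISAT2, DESeq2 and the TAIR10 build are named, with no version, in the processing notes of the submitters. How reads were assigned to genes, and by which strand rule, is not given in the sources used here. Of the 2 deposited tables, the first holds normalized signal values, that is counts over the size factor of each library. The second holds FPKM values of the authors, scaled alike between libraries. The labels give 4 replicates, whereas the methods of the study mention 3, and all 8 libraries were used. Size factors were 0.904 to 0.967 in the control and 1.03 to 1.14 at high temperature, and the normalized values came out as whole reads in 100% of cases (tolerance 0.01).

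The log2(normalized value + 0.5) values of the 21739 genes with a mean of at least 1 were fitted with limma 3.58.1 (intensity trend) in R 4.3.3, with no covariate. Called genes had an adjusted p under 0.05 (Benjamini-Hochberg) and a log2 fold change of 0.58 or more in size. A fold against a group without reads was computed against 3 reads over that group, and bounds cover counting error only. Alternatives included edgeR 4.0.16 and DESeq2 1.42.0 on the recovered reads, other pseudocounts, filters and scalings, the FPKM table, a replicate block and each library left out. The study describes its replicates as pools of seedlings, and p-values set the temperatures against the spread between the 4 libraries of each temperature. They treat all 4 as separate pools, which the methods, with 3 replicates, do not state for each library.

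The 10 genes, the family list, the lists of partners and markers, and the tests were chosen with earlier results of these data known. Named are the 10 genes, family genes near them on the chromosome, the 4 largest called changes in each direction with a mean of at least 10, genes with known roles, the oxidases and regulators, and the 3 largest called changes in each direction of the other lists. Gene names and most roles came from the reference annotation. The 3 listed oxidases RBOHE, RBOHG and RBOHI were dropped because their identifiers did not carry these names there. This is a gap of the name check and not evidence that the identifiers are wrong. Coordinates and sequences are those of RefSeq TAIR10.1, read with Biopython 1.88. Coding sequences were aligned globally, as protein sequences were not used here.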

Additional observations from a re-analysis of the deposited data

Results flagged for a closer look

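The lowest or highest library of a group of 4 stood far from the others in 6 of 49 gene and group combinations. Chance gives about 1 in 20 such groups, but this rate does not apply to the 4 in which a single library had any read and the other 3 were at 0. In PRX33, control replicate 1 was low at 2.07 beside 5.23 to 5.53 in the others. Low-count members had reads in a single control library, PRX53 at 1.03 in replicate 1 and PRX71 at 2.21 in replicate 2, which stand for 1 and 2 reads. At high temperature, replicate 3 alone had reads of PER7 (AT1G30870), at 3.81, and was high for PER64 (AT5G42180), at 56.2 beside 0 to 8.44. AT4G33420 had its only control reads in replicate 4, at 2.09.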

How the results depend on the processing

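Over 20 alternatives 3 of the 10 genes were called lower each time, and 2 or 3 were called higher. Since these genes were chosen on this contrast, the stability of their counts is no support for their differences. Over all genes, 3770 to 7798 were called higher and 2599 to 7657 lower. The other family genes gave 7 to 11 higher and 15 to 20 lower. The log2 ratio of their summed FPKM was -0.41 after rescaling every library to the same total, -0.55 without the most abundant gene, and from -0.68 to -0.62 when 1 library was left out, where an exact permutation p could not go below 0.057. With the same-numbered libraries as pairs (replicate block) it was -0.65 with an exact p = 0.125, the smallest that 4 pairs allow. The numbers did not pair the libraries (correlations of deviations from 0.0031 to 0.077). With the block in limma, 2 of the 10 genes were higher and 2 laccases lower. A minimum mean of 10 left fewer genes to test and gave 7 lower root hair markers and 5 lower extensins. Without the fold threshold 1 root hair marker, 2 extensins and 5 laccases were higher. Rescaling gave 2 higher extensins and 5 higher laccases, and quantile normalization 2 higher extensins and 2 lower laccases. Leaving out 1 library gave 2 to 5 higher and 1 to 3 lower laccases. RCI3 dropped under the fold threshold after rescaling (-0.57) and quantile normalization (-0.47). Adding the reads of PRX33 and PRX34, chosen after seeing the data, gave a log2 fold change of 6.10 for the pair. The cause of these shifts was not tested. Few reads limit PRX2, PRX53 and PRX71, and PRX2 is limited by its repeated sequence too.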
